A study of Mus musculus with 11 samples.

Results

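Unchallenged lung of Foxa3 knockouts was compared with that of littermate controls on all 5 saline arrays of a series of 11: 2 from knockouts (Foxa3-/-) and 3 from controls (WT, called wild type here), chosen by their titles. The other 6 arrays hold 3 wild types and 3 knockouts that received OVA (ovalbumin, an egg-white protein used as an allergen). Total RNA of mouse lung, 400 ng per sample, was hybridised to single-colour Agilent arrays, and 22083 genes were tested, each by its brightest probe. Both saline groups differ from each other in the Foxa3 genotype alone as far as the labels say. The labels name no strain, age or sex, and do not say which part of Foxa3 was removed or whether the deletion is limited to a tissue or cell type.

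FOXA3 belongs, with FOXA1 and FOXA2, to the FOXA group of forkhead transcription factors, which bind DNA through a winged-helix domain and can open closed chromatin. The group is known for its part in the development of liver, gut and lung. In the lung FOXA2 is abundant in airway and alveolar epithelium, whereas FOXA3 is known from mucus-producing goblet cells, which are rare in unchallenged mouse airways.

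Levels below are scaled log2 intensities, that is, the log2 signal of a probe minus the 75th percentile of its array, so that a value of 0 lies at that percentile. They compare the same probe between arrays and do not rank different genes. Differences are knockout minus wild type with the standard error of limma's model over all 11 arrays. A gene counts as called, or as risen or fallen, where limma's adjusted p (Benjamini-Hochberg over 22083 genes) was under 0.05. The labels do not say that each array is a separate animal, so p-values measure only the spread between these samples.

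Between 71.1% and 78.9% of probes lay well above background on the saline arrays, with 71.1% and 75.2% in the knockouts and 75.4% to 78.9% in the wild types. The first principal component of the saline arrays (46.7% of the variance) set wild type 1 (-42.1) and knockout 2 (-39.0), which share slide 1, apart from the other 3 arrays (25.3 to 28.9). The second component (20.6%) set the knockouts (24.2 and 28.2) apart from the wild types (-27.0 to -12.5). Slides 1 and 2 each hold 1 array of both saline groups, so differences are also given within these slides, whereas slide 3 holds wild type 3 alone. On all 11 arrays the 4 Xist probes were well above background and the 7 probes of Y-linked genes were not. Defining markers of alveolar type II, alveolar type I, club, ciliated and endothelial cells were all well above background on the 5 saline arrays (5, 5, 4, 4 and 4 markers).

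Few genes differed between knockout and wild-type lung after saline. Limma called 21 of 22083 genes (0.0951%), of which 6 (0.0272%) were higher and 15 (0.0679%) lower in the knockouts. The split was 10 higher and 13 lower with normexp background correction and 11 and 16 with the deposited value table. A further view by unadjusted p, chosen after the values were seen, gave 66 genes under 0.001 (0.299%) and 717 under 0.05 (3.25%, with 1.04% higher and 2.21% lower). In all 21 genes the values of the 2 knockout and the 3 wild-type arrays did not overlap, which held for 21.5% of all genes tested. The call count fell to 11 without wild-type saline 1, to 11 without wild-type saline 2 and to 11 without wild-type saline 3. It was 10 when only the 5 saline arrays were fitted, 12 with slide as a block and 1 without slide 1. With array weights it was 54. Of the 21 genes, 11 were called whichever single array was left out, 8 of them with a usable symbol: Afm, Plac9a, Tmem254a, Lrmda, Tescl, Igsf23, Nnt and Mrps12. Of these 8, Igsf23, Nnt and Mrps12 were not called when only the 5 saline arrays were fitted (limma adjusted p 0.146, 0.146 and 0.187). Without slide 1 only knockout 1 remains of the knockout saline arrays. The differences there were -6.86 for Afm, -1.95 for Plac9a, -2.04 for Tmem254a, -2.29 for Lrmda, 3.54 for Tescl, 1.89 for Igsf23, 1.31 for Nnt and -1.11 for Mrps12.

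The deleted gene itself had scaled log2 levels of -6.08, -5.87 and -5.87 in wild-type lung and -8.45 and -8.62 in knockout lung. Its probe (chr7:16696078-16696137, mm7 as all probe positions here) was detected above background on each wild-type array and on neither knockout array. Where a group lies below background, the difference is given as a bound, the bright group's mean against the lowest signal well above background on the dim arrays. Such a bound holds for the intensities used here, and other processing can give smaller differences. By that bound Foxa3 was at least 1.58-fold lower in the knockouts (measured means -5.94 and -8.53, limma adjusted p 0.0325). The deposited value table and normexp background correction, given below, did not reach this bound. The difference was -2.54 on slide 1 and -2.58 on slide 2. The call ended with the deposited value table (-0.41, adjusted p 0.361), with normexp (-0.22, 0.878), with slide as a block (0.0631), with a trended robust prior (0.0564) and when any of the 5 saline arrays, the 3 wild-type OVA arrays or knockout OVA 1 was left out (0.0658 to 0.279). Its relatives Foxa1 and Foxa2 did not pass: Foxa1 differed by -0.09 ± 0.22 and Foxa2 by 0.22 ± 0.18 (limma unadjusted p 0.677 and 0.234), and the levels of the groups overlapped.

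**Figure D1:**
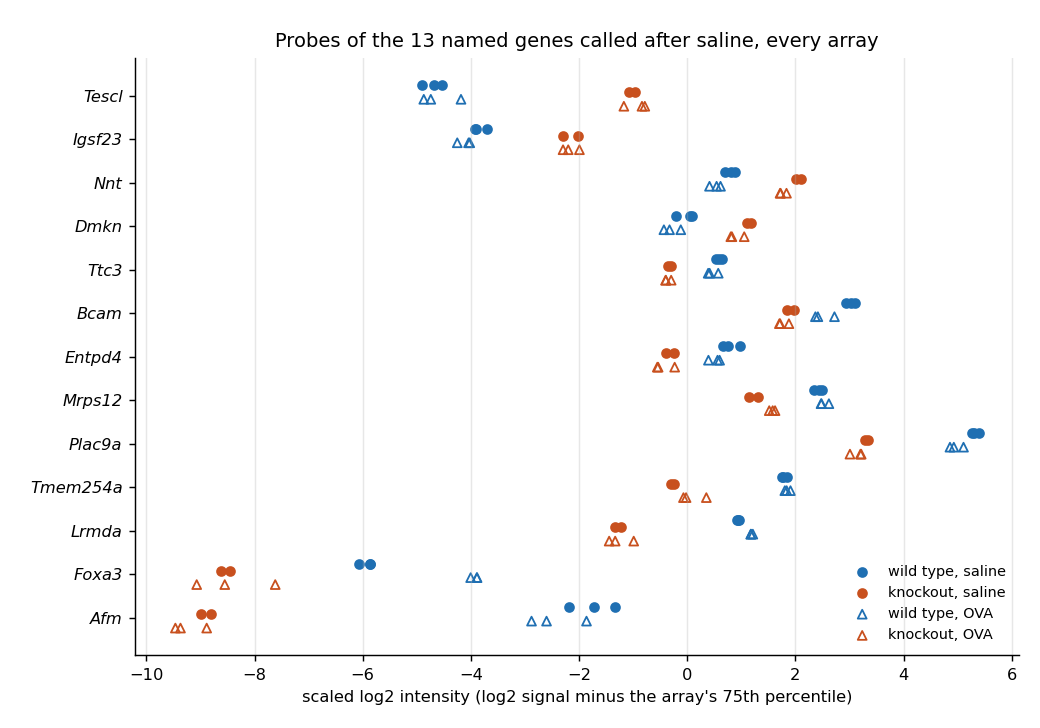
Scaled log2 intensity (x axis) of the probes of the 13 named genes called after saline (y axis), with 1 point per array: filled circles are saline arrays, open triangles OVA arrays, blue wild type and orange knockout. In each gene the 2 knockout saline points lie on 1 side of the 3 wild-type saline points; Tescl, Igsf23, Nnt and Dmkn lie higher in the knockouts and the other 9 lower.

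The largest named fall was that of Afm, which encodes afamin, a plasma protein of the albumin family that binds vitamin E and is made mainly in the liver. Its levels were -1.33, -2.18 and -1.72 in wild-type lung and -8.80 and -8.98 in knockout lung. The wild-type arrays were all well above background at this probe (chr5:90524738-90524797) and the knockout arrays were not. By the intensities used here Afm was therefore at least 28.9-fold lower in the knockouts (measured means -1.74 and -8.89, limma adjusted p 5.75e-05). Over the 24 alternative settings its difference ran from -7.37 to -2.82, the latter smaller in size than this bound. On slide 1 the difference was -7.65 and on slide 2 -6.62. In the list of liver and gut endoderm genes, 11 of 15 were tested, none was called, and the median difference was -0.25 against 0.02 over all genes. That median was 0.33 within slide 1 and 0.16 within slide 2.

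A cluster of falls lay on chromosome 14. Lrmda, named for a leucine-rich protein linked to melanocyte differentiation, had levels of 0.91, 0.96 and 0.94 in wild types and -1.34 and -1.22 in knockouts, a fall by 2.22 on the log2 scale (SE 0.13, 4.65-fold, limma adjusted p 0.000218). Plac9a, which encodes a small secreted protein, had levels of 5.40, 5.31 and 5.27 in wild types and 3.34 and 3.28 in knockouts, a fall by 2.01 (SE 0.11, 4.04-fold, limma adjusted p 2e-04). Tmem254a, a transmembrane protein gene, had levels of 1.78, 1.75 and 1.84 in wild types and -0.25 and -0.30 in knockouts, a fall by 2.06 (SE 0.13, 4.18-fold, limma adjusted p 0.00032). In each of these genes the arrays of a group lay close together and the groups were far apart. Their probes lie at chr14:20713625-20713684 (Lrmda), chr14:23560344-23560772 (Plac9a) and chr14:23594602-23594661 (Tmem254a).

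Plac9a and Tmem254a sit in a stretch of chromosome 14 that RefSeq (GRCm38.p6) shows in several copies, with Plac9b, Tmem254b and Tmem254c as near-identical neighbours. The 250 bases before the annotated starts are shown to make the likeness visible, with the longest run of letters shared by a pair in capitals (5′ to 3′, GRCm38.p6).
Plac9a, chr14:25902894-25903143, minus strand: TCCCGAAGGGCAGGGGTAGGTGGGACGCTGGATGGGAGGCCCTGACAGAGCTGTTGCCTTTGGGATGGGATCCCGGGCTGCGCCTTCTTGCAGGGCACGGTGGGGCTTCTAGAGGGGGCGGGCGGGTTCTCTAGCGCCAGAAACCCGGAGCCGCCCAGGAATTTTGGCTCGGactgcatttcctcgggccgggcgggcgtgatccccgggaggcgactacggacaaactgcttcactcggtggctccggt
Plac9b, chr14:26182352-26182601, minus strand: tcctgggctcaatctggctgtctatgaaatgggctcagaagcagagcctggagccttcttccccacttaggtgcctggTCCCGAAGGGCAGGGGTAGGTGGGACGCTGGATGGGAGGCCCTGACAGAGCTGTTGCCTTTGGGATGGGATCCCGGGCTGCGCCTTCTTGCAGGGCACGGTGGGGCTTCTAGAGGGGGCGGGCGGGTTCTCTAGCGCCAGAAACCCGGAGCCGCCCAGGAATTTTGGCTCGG
Tmem254a, chr14:25927673-25927922, minus strand: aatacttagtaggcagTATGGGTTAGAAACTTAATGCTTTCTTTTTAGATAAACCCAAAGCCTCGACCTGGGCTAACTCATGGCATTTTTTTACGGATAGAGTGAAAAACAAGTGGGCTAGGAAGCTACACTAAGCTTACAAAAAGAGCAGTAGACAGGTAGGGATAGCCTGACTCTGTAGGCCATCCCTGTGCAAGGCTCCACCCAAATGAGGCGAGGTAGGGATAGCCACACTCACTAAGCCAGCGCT
Tmem254b, chr14:26207026-26207275, minus strand: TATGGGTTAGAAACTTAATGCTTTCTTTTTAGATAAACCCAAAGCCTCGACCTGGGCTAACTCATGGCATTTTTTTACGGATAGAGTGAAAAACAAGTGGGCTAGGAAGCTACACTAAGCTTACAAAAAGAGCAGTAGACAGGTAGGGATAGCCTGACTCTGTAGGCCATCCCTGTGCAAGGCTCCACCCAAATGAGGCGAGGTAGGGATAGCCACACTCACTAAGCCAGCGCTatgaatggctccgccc
The shared run covers 172 bases in the Plac9 pair, whose annotated starts are offset by 78 bases, and 234 bases in the Tmem254a and Tmem254b pair, offset by 16. Tmem254a and Tmem254c share all 250 bases. Which copies each probe measures was not tested, so the falls are those of the probes and the files do not tie them to a single copy. Of the 13 named called genes 10 had a promoter window in the same table, from 250 bases before to 50 after a start. None of their 14 windows held the forkhead letters TGTTTAC or TGTTTGC on either strand, which 3.65% and 5.07% of all 32851 windows held. One or the other was in 8.48% of all windows, and at that share 14 windows can readily hold none.

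A further group of chromosome 14 probes lay near Entpd4. Entpd4, which encodes a nucleotide-cleaving enzyme of the Golgi and lysosomes, had levels of 0.97, 0.66 and 0.76 in wild types and -0.25 and -0.40 in knockouts, a fall by 1.12 (SE 0.14, limma adjusted p 0.0316). RefSeq lists a copy, Entpd4b, beside it. A second Entpd4 probe differed by -0.96 ± 0.24. The Entpd4 call ended with slide as a block (0.172), with median scaling (0.0923), with the mean of its probes (0.0689), and without any of the 5 saline arrays, the 3 wild-type OVA arrays or knockout OVA 1 or 2 (0.0564 to 0.278). The probe of the clone AK086749 (chr14:64228669-64228728) overlaps the Entpd4 probe on the opposite strand. AK086749 was at least 2.72-fold lower in the knockouts (measured means -5.15 and -8.50, limma adjusted p 0.0208), a bound not reached with the deposited value table or normexp. That call ended without any of the 5 saline arrays (0.0761 to 0.199), with slide as a block (0.0787), with the deposited value table (-0.66, 0.101) and with normexp background correction (-0.29, 0.878). The clone AK038254 (chr14:64267822-64267881) had levels of -3.26, -3.33 and -3.26 in wild types and -8.30 and -8.60 in knockouts, which lay below background, so it was at least 9.94-fold lower (measured means -3.28 and -8.45, limma adjusted p 7.35e-06). In the deposited value table its levels were 7.39, 7.39 and 7.45 in wild types and 5.97 and 5.85 in knockouts. That difference is smaller than this bound. AK038254 alone of the 21 was still called without slide 1 (-5.01, adjusted p 0.0476).

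In all, 7 of 771 chromosome 14 genes were called (0.908%), all of them lower in the knockouts. The seventh, AK084429 (chr14:20348302-20348361), lay close to the Lrmda probe. Lrmda spans 1036590 bases in RefSeq (GRCm38.p6), and whether AK084429 lies within it was not tested. AK084429 fell by 2.16 (SE 0.27, limma adjusted p 0.0316). Its call ended without any of the 5 saline arrays, the 3 wild-type OVA arrays or knockout OVA 3 (0.0537 to 0.279), with the replicate block (0.126), and with normexp background correction, where the difference was -0.73 (0.418). Duxbl1, a double-homeobox gene beside Tmem254a that was singled out for its place after the values were seen, was below background on both knockout arrays and at least 1.91-fold lower there, short of the threshold (measured means -5.66 and -8.36, limma adjusted p 0.213).

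The largest named rise was that of Tescl, which encodes a tescalcin-like, predicted calcium-binding protein. Its levels were -4.90, -4.54 and -4.68 in wild types and -1.07 and -0.97 in knockouts, a rise of 3.69 ± 0.21 (12.9-fold, limma adjusted p 2e-04). The slides gave 3.93 and 3.47. Igsf23, an immunoglobulin superfamily gene, had levels of -3.70, -3.90 and -3.93 in wild types and -2.02 and -2.29 in knockouts, a rise of 1.69 ± 0.14 (3.22-fold, limma adjusted p 0.00216). A second Igsf23 probe, above background on 2 of 5 arrays, differed by 1.88 ± 0.24. At the probes used both genes were well above background on all 5 arrays, and their groups did not overlap.

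Nnt encodes nicotinamide nucleotide transhydrogenase, an inner mitochondrial membrane enzyme that makes NADPH, and is known to be disrupted in the C57BL/6J strain. Its levels were 0.81, 0.89 and 0.70 in wild types and 2.10 and 2.01 in knockouts, a rise of 1.26 ± 0.11 (2.39-fold, limma adjusted p 0.00216). Both knockout arrays lay above all 3 wild-type arrays, and the differences within slides 1 and 2 were 1.20 and 1.21. A pair of further Nnt probes differed by 1.19 ± 0.16 and 1.17 ± 0.15, and another, above background on 4 of 5 arrays, by 0.12 ± 0.36. Whether alleles at Nnt or at the other called genes differ between the groups was not tested.

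Among the remaining named calls, Mrps12, which encodes a protein of the small mitochondrial ribosomal subunit, had levels of 2.43, 2.49 and 2.35 in wild types and 1.31 and 1.14 in knockouts, a fall by 1.20 (SE 0.10, limma adjusted p 0.00216). Bcam, the Lutheran adhesion molecule that binds laminin, had levels of 3.04, 2.93 and 3.11 in wild types and 1.97 and 1.84 in knockouts, a fall by 1.12 (SE 0.13, limma adjusted p 0.0226). Dmkn, which encodes the secreted epithelial protein dermokine, had levels of 0.08, 0.05 and -0.22 in wild types and a mean of 1.14 in knockouts, the higher at 1.19, a rise of 1.17 ± 0.14 (limma adjusted p 0.027). These 3 genes lie on chromosome 7, and none overlapped between the groups. Ttc3, an E3 ubiquitin ligase gene on chromosome 16, had levels of 0.65, 0.59 and 0.54 in wild types and -0.30 and -0.35 in knockouts, a fall by 0.92 (SE 0.10, limma adjusted p 0.0126). Mrps12 was called without any single array. The other calls ended without any of the 5 saline arrays, with adjusted p up to 0.183 for Ttc3, 0.199 for Bcam and 0.285 for Dmkn. Bcam was also lost without wild-type OVA 3 (0.0536) and Dmkn without wild-type OVA 3 (0.0637) or knockout OVA 3 (0.0564). With slide as a block Ttc3 (0.0637), Bcam (0.0793) and Dmkn (0.146) were not called, nor was Bcam with median scaling (0.053).

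The other called probes carry clone, accession or probe names. S74315, annotated in the array's design as a retroviral gag and env messenger RNA, had levels of -6.09, -6.06 and -6.02 in wild types and -2.73 and -2.93 in knockouts, a rise of 3.23 ± 0.28 (9.39-fold, limma adjusted p 0.00216). Such sequences occur in many copies in the mouse genome, so this probe names no single locus. The probe A_51_P378501, which has no annotation, was below background on the 3 wild-type arrays (-9.28, -8.57 and -9.19) and above it on both knockout arrays (-5.50 and -5.64), at least 2.80-fold higher (measured means -5.57 and -9.01, limma adjusted p 0.000648). It met the filter of 2 or more arrays above background through those knockout arrays alone, so its adjusted p is not independent of the filter. That call ended with normexp background correction, where the difference was 0.82 and so smaller than this bound (adjusted p 0.127), and when only the 5 saline arrays were fitted (0.102). LOC674214 fell by 2.49 (SE 0.31) and 4933409K07Rik fell by 2.41 (SE 0.31), with limma adjusted p of 0.0286 and 0.0327. AK048907 was well above background on 2 wild-type saline arrays and on neither knockout saline array, and its bound gave no difference. Its measured means were -6.88 in wild types and -8.76 in knockouts, a measured difference of -1.89 (SE 0.24, limma adjusted p 0.0316). Those 3 calls each ended without any of the 5 saline arrays (0.0595 to 0.331) and without several OVA arrays: wild-type OVA 2 and knockout OVA 3 for all 3 (0.0634 to 0.0868), knockout OVA 1 and 2 for AK048907 and 4933409K07Rik (0.0564 to 0.0727), and wild-type OVA 3 for 4933409K07Rik (0.0597). All 3 were also lost with slide as a block (0.0533 to 0.215), and AK048907 with normexp (-0.06, 0.955) and the deposited value table (-0.29, adjusted p of about 1).

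The called genes lay mostly on chromosomes 7 and 14. On chromosome 7, which carries Foxa3, 4 of 135 genes within 5 Mb of the Foxa3 probe were called (2.96%), 1 of 177 at 5 to 10 Mb, 1 of 197 at 10 to 20 Mb and 0 of 1156 beyond 20 Mb. The 6 are Foxa3, Bcam, Igsf23, Tescl, Mrps12 and Dmkn. By unadjusted p under 0.001, the respective counts were 12, 5, 9 and 0, against 22 of 19246 (0.114%) on the placed chromosomes other than 7 and 14. On chromosome 14 there were 10 of 771 (1.30%), all lower in the knockouts. The 26 on chromosome 7 were higher in 9 and lower in 17. Apart from Foxa3, the other 25 lay between 2.13 Mb to the lower side and 15.7 Mb to the higher side of the Foxa3 probe. Over 20 Mb away none of the 1156 genes had an unadjusted p under 0.001, and the median size of the difference was 0.13 there, 0.22 within 5 Mb and 0.12 over all genes.

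**Figure D2:**
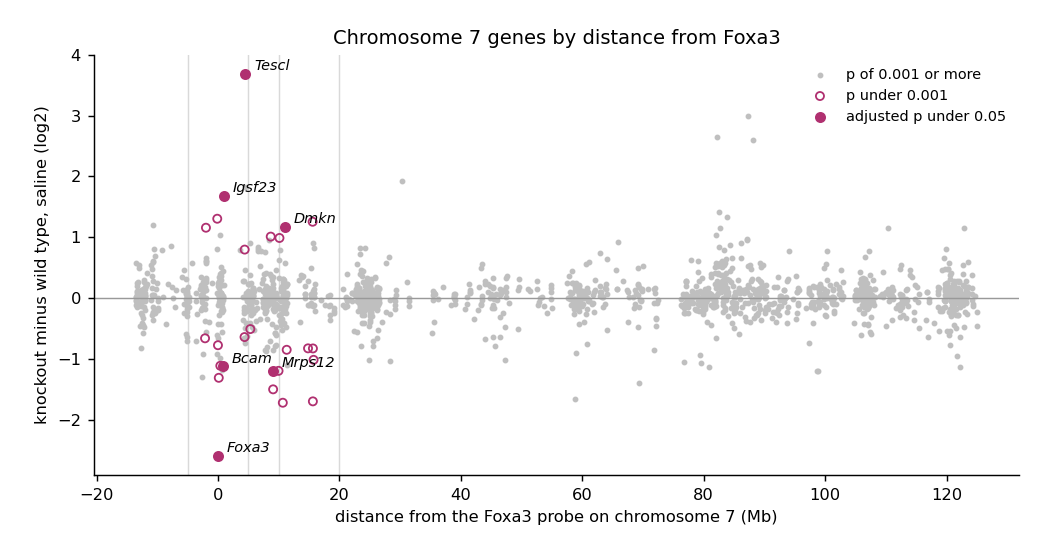
Difference between knockout and wild type after saline (log2, y axis) of each chromosome 7 gene against its distance in Mb from the Foxa3 probe (x axis; grey lines at 5 Mb on both sides and at 10 and 20 Mb). Filled points passed an adjusted p of 0.05 and open circles an unadjusted p of 0.001; all 26 lie within 20 Mb of Foxa3.

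Just short of the threshold were 11 named genes with the next smallest p and no overlap between the groups. Camk2b, a calcium- and calmodulin-dependent kinase subunit, had levels of -1.42, -1.91 and -1.25 in wild types and 0.31 and 0.01 in knockouts, a difference of 1.69 ± 0.24 (limma adjusted p 0.0524), and after OVA it was called at 1.55 ± 0.21 (0.0288). Gmfg, a regulator of actin branching in white blood cells, differed by 1.01 ± 0.15, Rhpn2 by 1.26 ± 0.20, and the epithelial galectin Lgals4 by -1.50 ± 0.23 (limma adjusted p 0.0575, 0.0851 and 0.0749). Nudt19, a peroxisomal enzyme that cleaves coenzyme A, differed by -1.02 ± 0.16 and the centrosomal protein gene Cep89 by -0.83 ± 0.13 (0.0864 and 0.0851). Gmfg, Lgals4, Rhpn2, Cep89 and Nudt19 all lie within 20 Mb of Foxa3.

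The other genes of that group lie elsewhere. The muscle genes Flnc, which encodes filamin C, and Dusp27 differed by -0.79 ± 0.11 and -0.99 ± 0.15 (limma adjusted p 0.0566 and 0.0714). Of 3 further Flnc probes, 1 differed by -0.95 ± 0.14 and the others by -0.36 ± 0.64 and 0.05 ± 0.37. After OVA Flnc differed by -0.16 ± 0.10 and Dusp27 by -0.21 ± 0.13. Rab4a, a GTPase of endosomal recycling, differed by 0.68 ± 0.11, and the peptide transporter gene Slc15a2 by 0.82 ± 0.13 (limma adjusted p 0.0935 and 0.103), and both were called after OVA at 0.81 ± 0.10 and 0.88 ± 0.12 (0.0181 and 0.0287). A second Slc15a2 probe differed by -0.17 ± 0.51. Ebf2, a chromosome 14 gene for a transcription factor of fat and neural cells, differed by -1.04 ± 0.17 (limma adjusted p 0.111) and by 0.10 ± 0.15 after OVA.

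The OVA arrays give the same genotype comparison in other samples. They share no array with the saline comparison, though they share slides and the model's estimate of the spread. After OVA limma called 46 genes (0.208%), 12 higher (0.0543%) and 34 lower (0.154%) in the knockouts. Of the 21 saline calls 18 were called after OVA in the same direction, which is 85.7% of the saline calls and 39.1% of the OVA calls. The OVA differences were -6.79 ± 0.30 for Afm (at least 22.7-fold lower), -2.44 ± 0.12 for Lrmda, -1.82 ± 0.10 for Plac9a, 3.67 ± 0.19 for Tescl and 1.24 ± 0.10 for Nnt. Bcam, at -0.74 ± 0.12, missed the threshold there (limma adjusted p 0.0602). AK048907 (-0.08 ± 0.22) and A_51_P378501 (-0.14 ± 0.22) were the other exceptions, and A_51_P378501 was the only saline call with the opposite sign. The OVA count fell to 23 without wild-type saline 2, 22 without knockout saline 1, 22 without knockout saline 2, 17, 29 and 18 without wild-type OVA 2, wild-type OVA 3 and knockout OVA 1, and 19 and 27 without knockout OVA 2 and 3. It was 1 without slide 1, 24 with slide as a block, 84 with normexp background correction, 95 with a trended robust prior, 101 with array weights and 94 with the deposited value table.

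**Figure D3:**
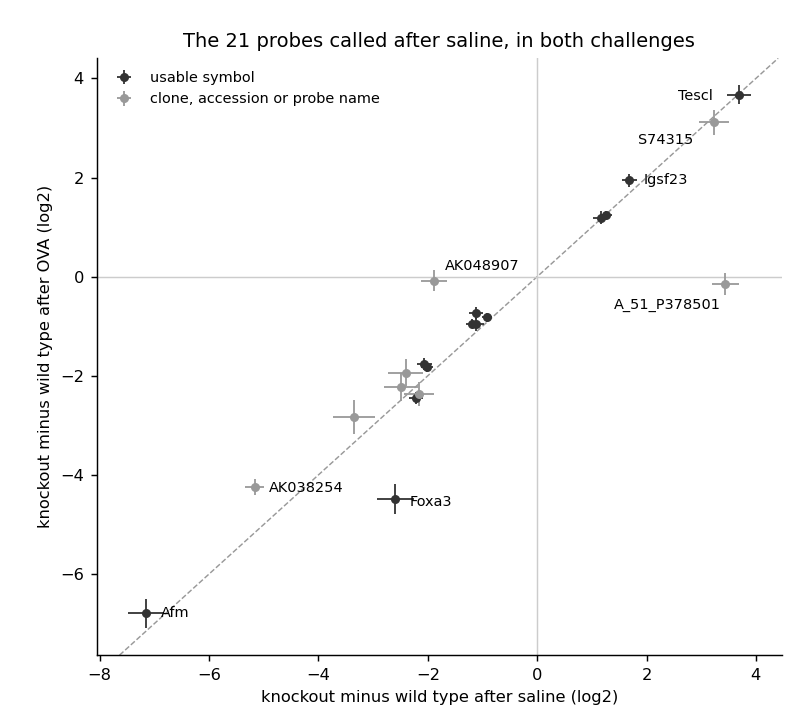
Knockout minus wild type after saline (x axis) and after OVA (y axis), in log2 units, for the 21 probes called after saline; bars are standard errors and the dashed line marks equal differences. A_51_P378501 and AK048907 lie near 0 on the y axis, Foxa3 (-2.60 and -4.49) below the line and AK038254 (-5.17 and -4.25) above it; the other 17 lie closer to it.

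The difference between the genotype effects after OVA and after saline was called for 1 of 22083 genes (0.00453%), with 568 at an unadjusted p under 0.05 (2.57%). It was the unannotated probe A_51_P378501 (OVA minus saline difference -3.58, limma adjusted p 0.0392), which was below background on all 6 OVA arrays. That probe passed the filter through the knockout saline arrays alone. The count was again 1 without wild-type saline 2 and without knockout saline 2, and 0 without each of the other 9 arrays. For Foxa3 the difference of the effects was -1.89 ± 0.45 and not called, with both knockout groups below background.

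Gene lists for lung and immune cell types, pathways and other tissues were described by their counts and medians. For comparison with the counts of higher and lower members, 12065 of all 22083 genes were higher and 10018 lower in the knockouts, whatever their p. Apart from Foxa3 itself, no member of the 31 lists was called after saline, against 0.0951% of all genes. At an unadjusted p under 0.05, which 3.25% of all genes reached, there were 11 of 14 members of the cardiac muscle list, 4 of 10 adipocyte, 2 of 7 red blood cell and 3 of 16 T cell genes. Other lists had shares like that of the T cell list: 3 of 20 matrix, 2 of 13 smooth muscle and 2 of 13 goblet cell genes. So did 2 of 11 eosinophil and mast cell genes and 1 of 5 thymus and lymph node genes. In bulk tissue fewer cells of a type and less RNA per cell cannot be told apart.

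**Figure D4:**
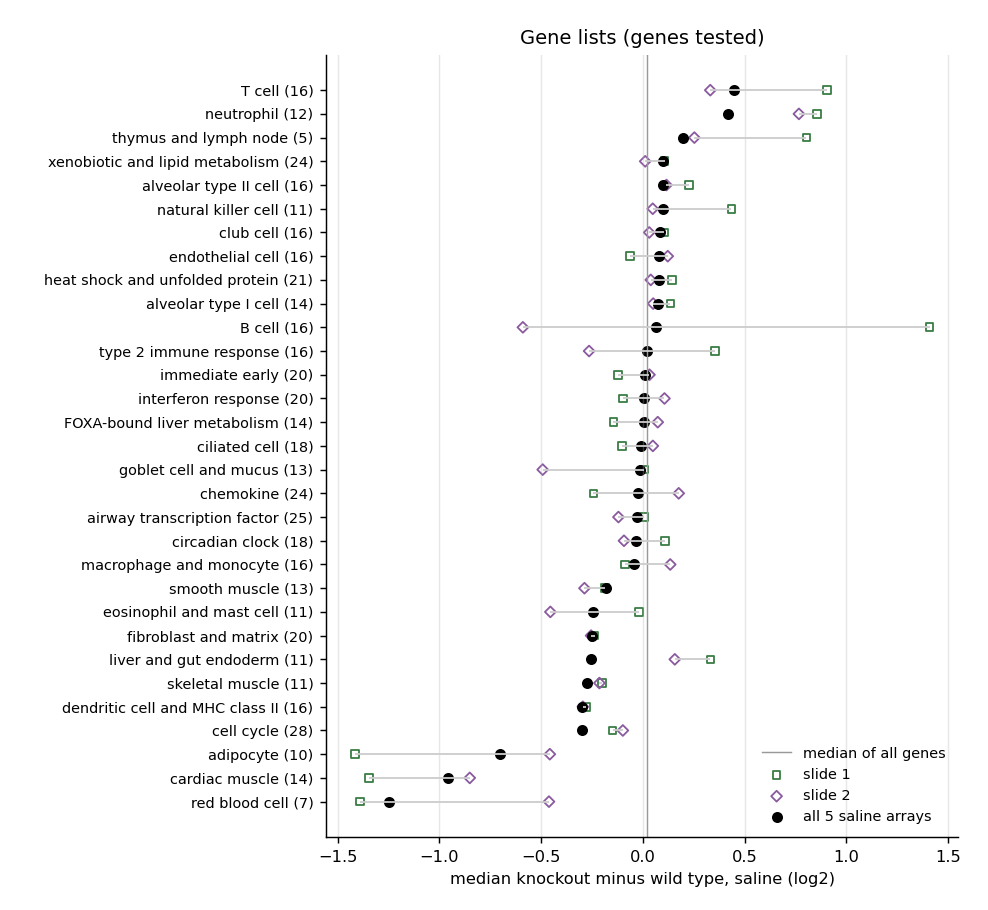
Median difference between knockout and wild type after saline (log2, x axis) of the genes tested in each of 31 lists (y axis, number of genes in parentheses): black points use all 5 arrays, green squares slide 1 and purple diamonds slide 2, and the grey line is the median of all genes (0.02). Cardiac muscle (-0.96), adipocyte (-0.70) and red blood cell (-1.25) lists lie lowest and T cell (0.45) and neutrophil (0.42) lists highest.

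Genes of cardiac muscle, which is known to line the large pulmonary veins of the mouse, had lower levels in the knockouts in 14 of 14 members, 13 with no overlap, against 10.7% of all genes that were lower with no overlap. The median difference was -0.96, with -1.35 on slide 1 and -0.85 on slide 2, and -0.16 after OVA. Mybpc3, cardiac myosin-binding protein C, had levels of 2.21, 1.66 and 1.06 in wild types and 0.12 and 0.03 in knockouts, a difference of -1.57 ± 0.34. Ttn, which encodes the sarcomere's giant spring protein titin, had levels of -0.87, -0.82 and -1.21 in wild types and -2.17 and -2.21 in knockouts, a difference of -1.22 ± 0.30. Of genes picked after their values were seen, Nppa, the atrial natriuretic peptide gene, differed by -1.68 ± 0.48 and Myh6, the atrial myosin heavy chain, by -1.12 ± 0.40. None passed the threshold (limma adjusted p 0.383 for Mybpc3 and 0.619 for Ttn). Among the wild types Mybpc3 ran over more than a log2 unit, lowest in wild type 3. The 4 defining heart markers were well above background on all 5 arrays.

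Adipocyte genes were lower in 9 of 10 members, with a median of -0.70 (slides -1.42 and -0.46, 0.13 after OVA). The fat hormone gene Adipoq had levels of 0.07, 0.16 and -0.55 in wild types and -1.23 and -1.83 in knockouts, a difference of -1.43 ± 0.40 (limma adjusted p 0.933). Cfd, the complement protease adipsin, lay between 3.81 and 4.14 in wild types and at 2.91 and 2.45 in knockouts, a difference of -1.30 ± 0.38 (0.933). Knockout 2 was the lowest array for both genes. Red blood cell genes were lower in 7 of 7 (median -1.25, slides -1.39 and -0.46), with none called. Over the 24 alternative settings that median ran from -1.52 to -0.04. The globin genes Hba-a1 and Hbb-bt, picked after their values were seen, differed by -0.19 ± 0.44 and -0.01 ± 0.34. Of the 7 red blood cell genes 4 were well above background on both knockout arrays.

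**Figure D5:**
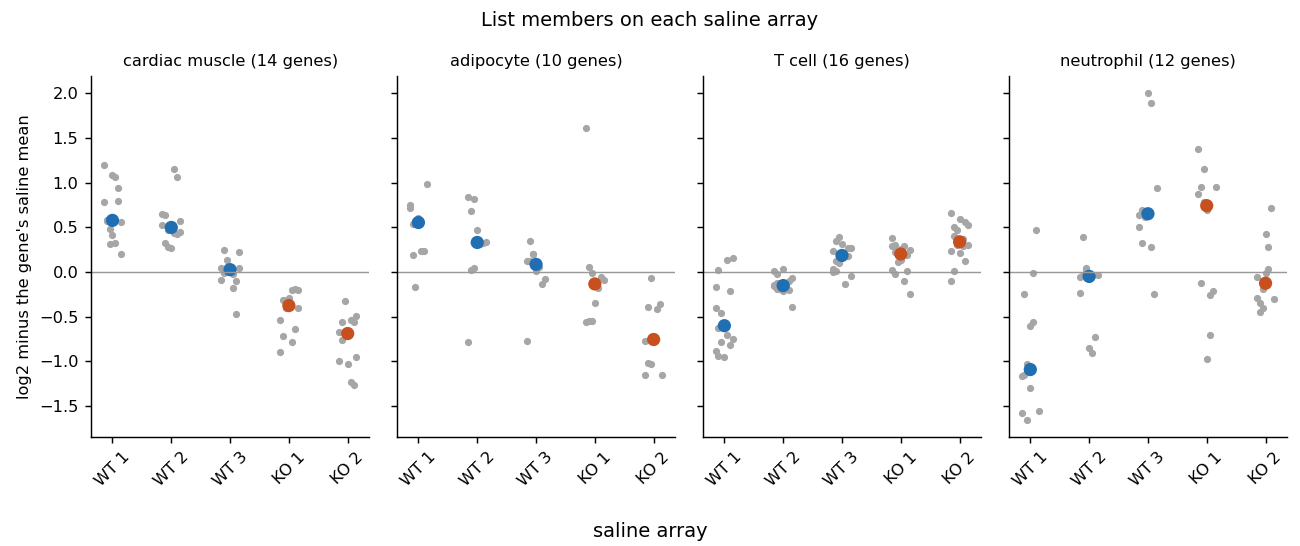
Scaled log2 level of each list member minus its mean over the 5 saline arrays (y axis), by array (x axis), for cardiac muscle, adipocyte, T cell and neutrophil lists; grey points are genes, large points the list medians (blue wild type, orange knockout). In cardiac muscle the medians were 0.58, 0.50 and 0.03 in wild types and -0.38 and -0.69 in knockouts, whereas in the neutrophil list the wild types alone ran from -1.09 to 0.65.

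T cell genes were higher in 14 of 16 members, with a median of 0.45 (slides 0.91 and 0.33, -0.03 after OVA). That median was 0.27 without wild-type saline 1 and 0.13 without slide 1, and the array medians of wild type 3 (0.18) and knockout 1 (0.20) were close. Cd3g, a chain of the T cell receptor complex, had levels of -2.26, -1.53 and -1.38 in wild types and a mean of -0.86 in knockouts, a difference of 0.86 ± 0.30 (limma unadjusted p 0.0183). Cd5, a T cell surface receptor, differed by 0.58 ± 0.25 (limma unadjusted p 0.0419), and neither was called. Wild type 1 was the lowest array for both genes. Neutrophil genes had a median of 0.42 (0.86 on slide 1, 0.77 on slide 2), and all 12 members overlapped between the groups. Without wild-type saline 1 that median was -0.10. Cxcr2, the neutrophil chemokine receptor, ran from -3.62 in wild type 1 to -0.67 in knockout 1, with a difference of 1.09 ± 0.69. B cell genes had a median of 0.06, but 1.41 on slide 1 and -0.59 on slide 2.

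No gene of the epithelial cell lists of airway and alveolus was called, against 0.0951% of all genes. At that share lists of this size would rarely hold a call. The medians were 0.10 for alveolar type II cells, 0.07 for alveolar type I cells, 0.09 for club cells, -0.01 for ciliated cells and -0.01 for goblet cells and mucus, against 0.02 over all genes. Of the 16 goblet cell genes 13 were tested, and Muc5ac, Fcgbp and Gcnt3 were not. The goblet cell median was 0.01 on slide 1 but -0.49 on slide 2, and it was -0.32 without wild-type saline 1, -0.22 without wild-type saline 3 and -0.36 without knockout saline 2. Around the gene means the goblet cell medians were 0.02, 0.19 and 0.09 in wild types and -0.40 and -0.07 in knockouts, which did not overlap. This was not particular to the goblet cell list. Array medians also did not overlap for the smooth muscle, matrix and MHC class II lists, among others. For alveolar type II cells they were -0.10, -0.02 and 0.01 in wild types and 0.07 and 0.09 in knockouts. Sftpc, the type II cell surfactant protein, had levels of 8.28, 8.28 and 8.09 in wild types and 8.54 and 8.78 in knockouts, a difference of 0.45 ± 0.15 (limma unadjusted p 0.016). Bpifb1, a secreted protein of airway mucous cells, had levels of 2.56, 3.11 and 2.96 in wild types and 1.90 and 2.14 in knockouts, a difference of -0.86 ± 0.24 (0.933). Tff2, a trefoil peptide, differed by -0.57 ± 0.24. Reg3g, an antimicrobial lectin of airway epithelium, differed by -0.88 ± 0.26 (0.933). For both Bpifb1 and Reg3g the knockout arrays lay below all wild-type arrays. Other members of their lists went both ways. In the club cell list, which holds Reg3g, 11 of 16 genes were higher, 7 with no overlap, and 5 lower, 4 with no overlap. Over all genes these no-overlap shares were 10.8% and 10.7%. Cyp2a5 of that list differed by 0.81 ± 0.41. In the goblet cell list, which holds Bpifb1 and Tff2, 6 of 13 were higher and 7 lower. In the list of airway transcription factors Foxa3 was the only call among 25 genes, and the median was -0.03. The 14 tested genes of liver metabolism known to be bound by FOXA factors had a median of 0.00, with none called and none at an unadjusted p under 0.05.

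Most smooth muscle and matrix genes had lower levels in the knockouts, none of them called. Of 13 smooth muscle genes 10 were lower, with a median of -0.18 (slides -0.19 and -0.29). Cnn1, calponin, had levels of 4.29, 4.25 and 4.10 in wild types and 3.60 and 3.70 in knockouts, a difference of -0.56 ± 0.14 (limma adjusted p 0.727), and Des, desmin, differed by -0.44 ± 0.11 (0.692). Of 20 fibroblast and matrix genes 16 were lower, with a median of -0.25 on all arrays, -0.24 on slide 1 and -0.25 on slide 2. Col3a1, a fibrillar collagen gene, differed by -0.52 ± 0.18 and Lum, which encodes the collagen-binding protein lumican, by -0.59 ± 0.22.

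The 2 members of the eosinophil and mast cell list with the smallest p, which the rule picked for that, were mast cell proteases. Neither was called. Mcpt4 had levels of -2.80, -3.04 and -3.47 in wild types and -4.46 and -4.40 in knockouts, a difference of -1.33 ± 0.32, and Cpa3, mast cell carboxypeptidase, had levels of -3.93, -3.91 and -3.85 in wild types and -4.74 and -4.72 in knockouts, a difference of -0.83 ± 0.22 (limma adjusted p 0.572 and 0.825). Other members of the eosinophil and mast cell list went both ways, with 4 of 11 higher. Genes of dendritic cells and MHC class II had a median of -0.30 (slides -0.28 and -0.29), with H2-Aa at -0.48 ± 0.24 and its master regulator Ciita at -0.43 ± 0.19. Cell cycle genes were lower in 25 of 28, with a median of -0.30 but -0.15 and -0.10 within slides, and their wild-type medians ran from -0.16 to 0.38 around the gene means. The interferon response (0.00), immediate early (0.01) and circadian clock (-0.03) lists had medians near that of all genes (0.02). The chemokine median was -0.02, with -0.24 on slide 1 and 0.18 on slide 2. The type 2 immune response median was 0.02, with 0.35 on slide 1 and -0.26 on slide 2, and it was 0.36 without knockout saline 1 and -0.35 without knockout saline 2.

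Detection differed between the groups as well. Of the 22083 genes, 248 were well above background on all 3 wild-type saline arrays and on neither knockout saline array, and 1 the other way round. The knockout saline arrays also had the lower shares of probes above background (71.1% and 75.2%), and the part of this in the count of 248 was not tested.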

How the data were processed

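Per the labels, total RNA (RNeasy columns) was amplified with a low-input single-colour kit and labelled with Cy3. Per the file headers, the deposited scanner files give an intensity for each spot with spatial and multiplicative detrending on, made with version 9.5.1.1 of Agilent's Feature Extraction, where the submitters' processing notes give 9.1. The deposited value table holds log2 values with array medians of 7.67; how the authors normalised it is not given in the sources used here, and it served as an alternative only.

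From 41174 probes other than controls, intensities were averaged over spots, taken as log2, and reduced by each array's 75th percentile. The 32942 probes well above background on 2 or more of 11 arrays were kept and the brightest represented each of 22083 gene names; on at least 1 array a value was missing for 124 genes. Gene symbols were taken from RefSeq (GRCm38.p6) for 22951 probes by accession, 6659 by current symbol and 3109 by synonym, and 8455 kept the file's name. Positions are the files' (mm7); the files do not say whether a probe lies in coding sequence or a UTR. Limma 3.58.1 (R 4.3.3) fitted 1 mean per group over 11 arrays (residual degrees of freedom 7, prior 1.96), two-sided, and was tested on simulated data. With 2 and 3 arrays, their number limits the precision.

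The members, the gene lists and the tests were chosen with earlier results of these data known. Named are Foxa1, Foxa2 and Foxa3, up to 15 rises and 15 falls among calls with a usable symbol, the smallest p to 24 genes, and up to 2 members per list by p; other genes were named after their values were seen, and so chosen were the summary by position and the threshold of 0.001. The alternatives were background correction, scaling, filter, probe summary, prior, array weights, blocks for slide and replicate number, the deposited table and each array left out. All arrays have 1 scan date. Some genes that the rule names are not reported here.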

Additional observations from a re-analysis of the deposited data

Results flagged for a closer look

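The unannotated probe A_51_P378501 differed between knockout and wild type after saline but not after OVA, with a difference of the effects of -3.58 on the log2 scale (limma adjusted p 0.0392). It lay above background on the 2 knockout saline arrays alone among the 11. So it passed the filter only through the group where it is high, and its adjusted p is not independent of that. The probe has no gene name or position in the files, and the cause was not tested.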

How the results depend on the processing

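Over 24 alternatives none of the 21 called genes changed sign, and 8 of the 13 named calls held whichever single array was left out. Calls after saline (21) numbered 10 with only the 5 saline arrays, 54 with array weights, 12 with slide as a block, 1 without slide 1 and 11 to 23 with 1 array left out; calls after OVA (46) numbered 84 with normexp background correction, 95 with a trended robust prior, 101 with array weights, 24 with slide as a block, 1 without slide 1, 94 with the deposited value table and 17 to 35 with 1 array left out. The single call for the difference of the effects went to 0 with normexp, quantile normalization, no filter, a trended robust prior, array weights, slide as a block, the replicate block, without slide 1 and with the deposited table, and to 0 or 1 with 1 array left out. With the replicate number as a block, 15 genes were called after saline, 13 of them among the 21, and 47 after OVA; Foxa3 (adjusted p 0.123), Bcam (0.0955), Dmkn (0.126) and Entpd4 (0.173) were not. Same-numbered arrays of different groups did not deviate together (correlations -0.40 to 0.34), so the numbers were not taken as pairs. Of the other genes followed, 5 changed sign, none of them called: Ccl22 (-1.41) and Il5 (-0.99) gave 0.055 and 0.26 with normexp, Myh4 (-0.87) gave 1.76 with the mean of its probes, Pou2af1 (0.48) and Pax5 (0.47) gave -0.39 and -0.75 without slide 1, and Pax5 ran from -0.21 to 1.01 with 1 array left out. Median scaling moved the median of all genes to 0.05, the normexp fit to 0.08. The cause of these changes was not tested, other than that fewer arrays leave fewer degrees of freedom. Among the 31 lists the medians of the goblet cell, ciliated cell, B cell, neutrophil, eosinophil and mast cell, and liver and gut endoderm lists were among those that changed sign under some alternative, and those of the cardiac muscle, adipocyte, red blood cell, T cell, smooth muscle and matrix lists under none of the 24. Their sizes varied all the same. The medians ran from -1.52 to -0.04 for red blood cell, -0.90 to -0.29 for adipocyte, -1.13 to -0.64 for cardiac muscle and 0.13 to 0.62 for T cell genes. Foxa3, AK086749 and AK048907 are dim (below background on both knockout arrays), where normexp gave -0.22, -0.29 and -0.06.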
